A study of Mus musculus with 10 samples.

Results

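The 9 genes described here encode transcription regulators known for the identity of visceral sensory neurons, which arise from the epibranchial placodes, or of somatic sensory neurons, which arise from the neural crest. They were chosen by symbol, with earlier results of these data known, from the 24421 gene rows of the count tables. They were Phox2a, Prdm12, Runx1, Runx3, Pou4f1, Isl1, Tlx3, Tbx3 and Nhlh2. All 9 had a row in every table. Their transcripts were counted in 10 pools of hand-picked mouse vagal neurons, in 5 groups of 2 pools.

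The vagus nerve carries sensory fibers from 2 ganglia that are fused in the mouse. Nodose neurons, in the caudal part, are placode-derived, and jugular neurons, in the rostral part, are crest-derived. In the Trpv1 selection, neurons came from Trpv1-tdTomato mice, in which Cre expressed from the Trpv1 gene turns on a red reporter, so that a cell stays red if it expressed Trpv1 at any earlier time. This selection held Trpv1-positive nodose and Trpv1-positive jugular pools of 30 neurons each and Trpv1-negative nodose pools of 15 neurons each, all taken from 2 mice. The capsaicin selection took neurons of wild type mice by their calcium response to the TRPV1 agonist capsaicin. Its nodose neurons (14 and 15 in the pools) also responded to the P2X agonist α,β-methylene-ATP, and its jugular neurons (15 and 16) did not. The ages of the mice were not given in the sources used here. Nothing in the sources ties a pool to an animal, so p-values measured the spread between pools, which may be technical in part. The selections also differed in mouse line, sequencing core and depth, and these cannot be told apart.

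The total count was 148452506 to 167704327 in the pools of the Trpv1 selection and 17666710 to 30810863 in the capsaicin selection. Levels are given as CPM, here the count divided by the pool's DESeq2 size factor and set to a common library of 72772000 counts. A count of 0 allowed up to 3 counts, for counting error only. That floor lay between 0.0116 and 0.0154 CPM for Trpv1 selection pools and between 0.118 and 0.176 CPM for capsaicin pools. The size factor raised capsaicin-responsive nodose pool 2, whose CPM summed to 1.803e+06 against 6.111e+05 to 9.342e+05 in the other pools. The labels were set beside markers. The study named Hoxb5 and Cited1 from these same data, so they are no independent check. P2rx2 encodes a P2X receptor, and the nodose neurons of the capsaicin selection were picked by their response to a P2X agonist. P2rx2 and Hoxb5, markers of nodose neurons, summed to 294.8 to 958.2 CPM in nodose pools and to at most 0.4316 CPM in jugular pools. Tac1 and Cited1, markers of jugular neurons, summed to at least 262.2 CPM in jugular pools and to at most 12.47 CPM in nodose pools. Trpv1 was at 0.03338 and 0.03478 CPM in the Trpv1-negative pools. It was at 17.84 and 25.79 CPM in the Trpv1-positive jugular pools and at 70.58 CPM or more in the others. Of the glial list, Apoe, Fabp7 and others summed to 2949 to 4034 CPM across Trpv1 selection pools and 1582 to 2092 CPM across capsaicin pools, while Sox10 was at most 0.1765 CPM outside the Trpv1-negative pools (10.15 and 2.241 CPM there). The 5 fibroblast and endothelium markers summed to 41.57 and 239.2 CPM in capsaicin-responsive jugular pools and to 0 and 38.43 CPM in capsaicin-responsive nodose pools. In the Trpv1 selection pools they summed to 0.2354 to 7.582 CPM. The 4 immune and 5 red blood cell markers were at 0 in all 10 pools.

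Sensory fate is built in layers. Isl1, a LIM homeodomain factor, and Pou4f1 (Brn3a), a POU homeodomain factor, act in nearly all sensory neurons of both origins. Phox2a, a paired-like homeodomain factor, belongs to the program of visceral and autonomic neurons. Prdm12, a PRDF1 and RIZ homology domain protein, is required for nociceptors to form, and its loss in people causes insensitivity to pain. Among crest-derived neurons, Runx1 takes part in the split of nociceptors into peptidergic and nonpeptidergic classes, and Runx3 acts in proprioceptive neurons. Tlx3 is a homeobox factor of excitatory sensory and dorsal horn neurons. Tbx3 is a T-box factor that mostly represses transcription, and Nhlh2 is a basic helix-loop-helix factor of developing neurons.

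Several patterns were seen over the 10 pools. Prdm12 was high in the 4 jugular pools and near 0 in the 6 nodose pools, and Tbx3 and Nhlh2 were high in the 6 nodose pools and low in the 4 jugular pools. Isl1 and Runx1 were present in every pool. Pou4f1 was highest in the capsaicin-responsive jugular pools and Tlx3 in the pools of the Trpv1 selection. Phox2a was high in 1 pool of each nodose group of the Trpv1 selection, and Runx3 in 1 Trpv1-negative nodose pool. In the fit over both selections, 2 of the 8 members tested passed the test between ganglia, Prdm12 and Tbx3, where 0.577% of the 11959 genes tested did. The study had already reported Prdm12 and Tbx3 as differing between the ganglia, so this is no measure of enrichment among the members.

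**Figure D1:**
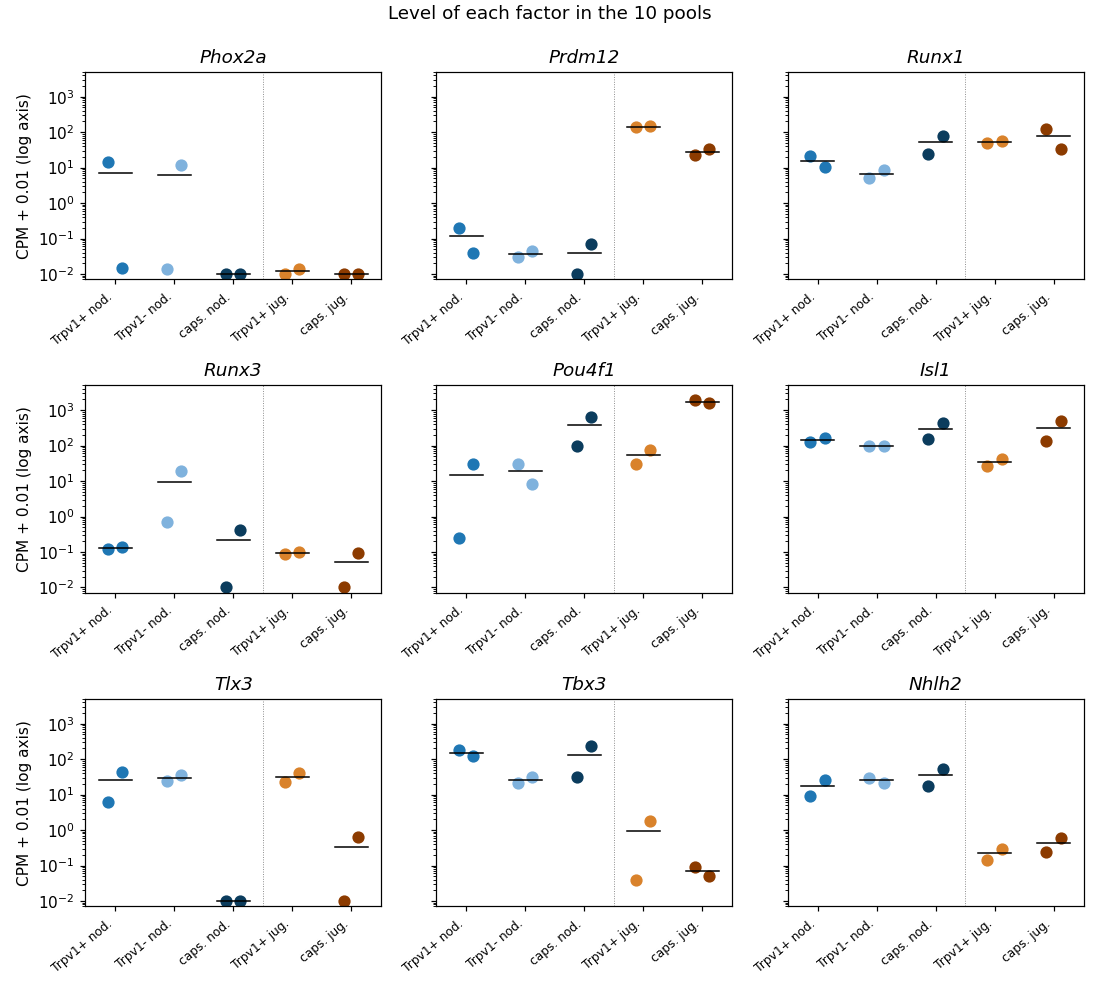
Level of each of the 9 factors as CPM + 0.01 on a log axis; each point is 1 pool, the black bar is the mean of the 2 pools of a group, and the dotted line parts nodose groups (left) from jugular groups (right). Prdm12 is at 22.25 CPM or more in the 4 jugular pools alone, Tbx3 and Nhlh2 are at 9.105 CPM or more in the 6 nodose pools alone, and Tlx3 sits below 1 CPM in the 4 capsaicin pools.

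Prdm12 (ENSMUSG00000079466.2, GRCm38 chromosome 2, 31640037 to 31655795, plus strand) was the member with the clearest jugular pattern. It had 137.8 and 147.5 CPM in the Trpv1-positive jugular pools and 22.25 and 32.6 CPM in the capsaicin-responsive jugular pools. In nodose pools it had 0.1904 and 0.02942 CPM (Trpv1-positive), 0.01932 and 0.03338 CPM (Trpv1-negative), and 0 and 0.05851 CPM (capsaicin-responsive). The jugular pools lay far above the nodose pools, and neurons of the Trpv1 selection lay above those of the capsaicin selection within the jugular ganglion. In pooled cells, fewer cells that express a gene and less RNA per cell cannot be told apart. The counts behind these levels were 32003 and 36506 in the Trpv1-positive jugular pools against 37 and 6 in the Trpv1-positive nodose pools. The 2 capsaicin-responsive nodose pools held 1 count together, and the jugular to nodose ratio in that selection was 1120 (95% interval 201 to 4.43e+04, exact, for counting error only).

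The edgeR quasi-likelihood test, with Benjamini-Hochberg adjustment over all genes, gave Prdm12 a log2 fold change (nodose minus jugular, as all those between ganglia below) of -10.28 over both selections (standard error, SE, 1.66, adjusted p = 0.0262). A gene was called, by the limits of the study's methods, if its adjusted p did not exceed 0.1, it changed by 2-fold or more and both pools of a group had 10 CPM or more. The study applied its limits to DESeq2, which is given below as an alternative to edgeR. Against the Trpv1-negative nodose pools the value was -12.40 (SE 0.87, adjusted p = 0.0227), and Prdm12 was the only member of 8 tested that was called there, where 0.226% of genes were. Within the Trpv1 selection it was -10.35 (SE 1.44, adjusted p = 0.150) and within the capsaicin selection -10.11 (SE 3.66, adjusted p = 0.352), so neither comparison of 2 against 2 pools alone passed. Of all members, edgeR called 0 of 8 in the Trpv1 selection, where 0.318% of genes were called and 4 members (Prdm12, Tbx3, Isl1 and Nhlh2) and 1305 of all 10990 genes had an unadjusted p under 0.05, and 0 of 6 in the capsaicin selection, where 0% of genes were called and 3 members (Tbx3, Pou4f1 and Prdm12) and 1150 of all 8181 genes had an unadjusted p under 0.05. The comparisons share jugular pools and are not independent of each other. Prdm12 in the Trpv1-negative comparison was not called with any 1 of the 4 pools left out (adjusted p of 0.3161 to 0.4158), and over both selections it was not called without Trpv1-positive jugular pool 1 (0.1199) or pool 2 (0.1324). The test of a different ganglion effect between the selections gave Prdm12 0.09 (SE 1.35, 95% interval -2.95 to 3.12, adjusted p = 0.9998), a value whose sign changed with the processing. An antisense gene, Gm13425, overlaps Prdm12, and the strand setting of the counting was not given in the sources used here.

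Tbx3 (ENSMUSG00000018604.18, chromosome 5, 119670669 to 119684724, plus strand, overlapped by the antisense gene Tbx3os1) had the opposite pattern. It had 178.1 and 122.6 CPM in Trpv1-positive nodose pools, 30.47 and 229.9 CPM in capsaicin-responsive nodose pools and 20.53 and 32.16 CPM in Trpv1-negative nodose pools. In jugular pools it had 0.03015 and 1.778 CPM (Trpv1-positive) and 0.07848 and 0.04169 CPM (capsaicin-responsive). The nodose and jugular pools did not overlap, and of the nodose groups the Trpv1-negative one was lowest, though it overlapped the capsaicin-responsive one. Over both selections the log2 fold change was 8.92 (SE 1.75, adjusted p = 0.0781). It was 7.36 (SE 2.08, adjusted p = 0.321) within the Trpv1 selection and 10.50 (SE 2.49, adjusted p = 0.352) within the capsaicin selection. The capsaicin-responsive jugular pools held 3 counts of Tbx3 together, and the ratio of nodose to jugular was 1871 (95% interval 640 to 9.08e+03, exact, for counting error only). The call over both selections was lost without Trpv1-positive nodose pool 1 (adjusted p = 0.2064) or pool 2 (0.1233), or without capsaicin-responsive jugular pool 1 (0.2259) or pool 2 (0.2233).

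Tbx3 was also the member with the largest difference by Trpv1 status inside the nodose ganglion among those at 10 CPM in both pools of a group. It was higher in Trpv1-positive than in Trpv1-negative nodose neurons, with a log2 fold change of 2.55 (SE 0.58, unadjusted p = 0.00652, adjusted p = 0.366), which did not pass in edgeR. DESeq2 called it (adjusted p = 0.00045). No member was called in this comparison by edgeR, where 0.0527% of 11386 genes were, and DESeq2 called 5.71%. The Trpv1-negative nodose pools still held Tbx3 above the Trpv1-positive jugular pools by 4.85 on the log2 scale (SE 2.42, adjusted p = 0.533).

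Nhlh2 (ENSMUSG00000048540.8, chromosome 3, 102010076 to 102015492, plus strand) was the other nodose member. It had 9.105 and 26.43 CPM in Trpv1-positive nodose pools, 28.59 and 21.85 CPM in Trpv1-negative nodose pools and 17.26 and 53.88 CPM in capsaicin-responsive nodose pools. In jugular pools it had 0.1292 and 0.2909 CPM (Trpv1-positive) and 0.2354 and 0.5837 CPM (capsaicin-responsive), from 6 to 72 counts a pool. The 3 nodose groups overlapped one another, and the jugular pools lay below all of them. On plain totals the Trpv1-negative pools (46.78 and 35.27 CPM) lay above the other nodose pools. Those had 11.45 and 35.07 CPM (Trpv1-positive) and 18.47 and 29.89 CPM (capsaicin-responsive). The log2 fold change was 6.24 over both selections (SE 2.11, 95% interval 1.57 to 10.92, adjusted p = 0.337), 6.39 in the Trpv1 selection (SE 2.38, adjusted p = 0.394) and 5.97 in the capsaicin selection (SE 2.88, adjusted p = 0.492). None of these passed in edgeR, while DESeq2 called Nhlh2 over both selections (adjusted p = 5.39e-13). Between Trpv1-positive and Trpv1-negative nodose neurons the value was -0.47 (SE 1.38, adjusted p = 0.989).

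Prdm12, Tbx3 and Nhlh2 were the 3 of 8 tested members whose 4 nodose and 4 jugular pools did not overlap, where 5.11% of all genes tested did not. With the Trpv1-negative pools added, so that 6 nodose pools were set against 4 jugular pools, it was again 3 of 8, against 2.58% of genes. The study had already reported Prdm12, Tbx3 and Nhlh2 as differing between the ganglia in the same data. The members were chosen with earlier results known, so these shares are no measure of enrichment among them. In comparisons of 2 against 2 pools, lack of overlap was common: it was seen for 7 of 8 members and 42.1% of genes in the Trpv1 selection, and for 4 of 6 members and 42.1% of genes in the capsaicin selection. It was also seen for 7 of 8 members and 44.1% of genes between Trpv1-negative nodose and Trpv1-positive jugular pools, and for 4 of 8 members and 40.7% of genes by Trpv1 status.

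DESeq2, fitted to the same counts, called more members and also far more genes. Within the Trpv1 selection it called 3 of 8 members (Prdm12, Tbx3 and Isl1) and 9.38% of genes. Nhlh2 had a DESeq2 adjusted p of 2.54e-05 there. It was not called because Trpv1-positive nodose pool 1, at 9.105 CPM, lay under the limit of 10 CPM. Within the capsaicin selection DESeq2 called 3 of 6 members (Prdm12, Tbx3 and Nhlh2) and 10.2% of genes. Between Trpv1-negative nodose and Trpv1-positive jugular pools DESeq2 called 4 of 8 members (Prdm12, Tbx3, Nhlh2 and Runx1) and 6.6% of genes. Over both selections it called 3 of 8 (Prdm12, Tbx3 and Nhlh2) and 9.4% of genes. For the interaction it called 0 of 8 members and 10.1% of genes, and between selections 4 of 8 (Pou4f1, Tlx3, Isl1 and Prdm12) and 19% of genes.

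**Figure D2:**
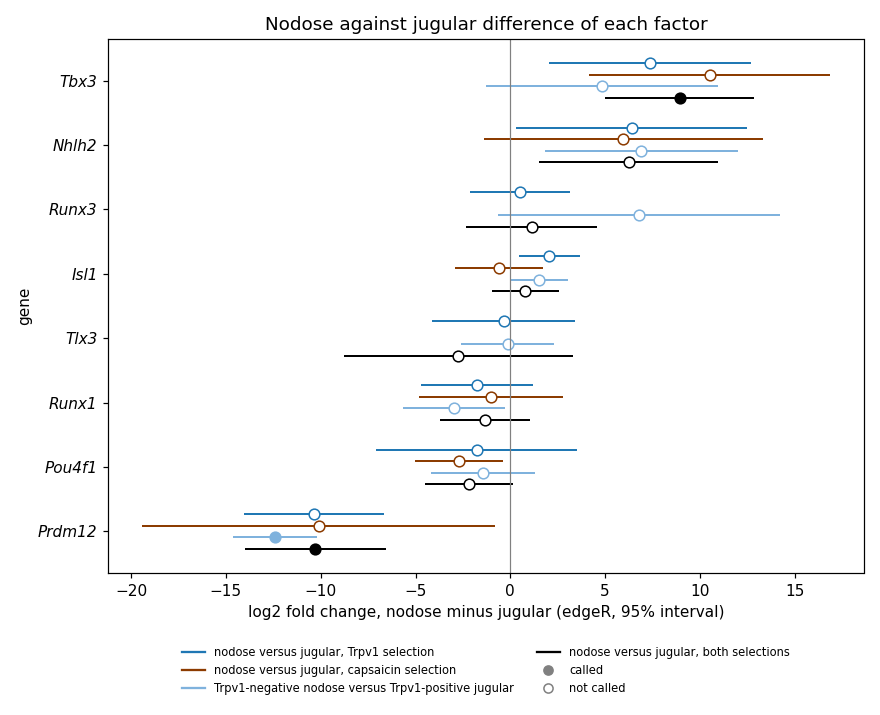
The log2 fold change, nodose minus jugular, of each factor that could be tested, in 4 comparisons that share pools; points are edgeR estimates, lines are 95% intervals, and filled points passed the test. Prdm12 is at -10.11 to -12.40 in the 4 comparisons, Tbx3 at 4.85 to 10.50 and Nhlh2 at 5.97 to 6.89, while the intervals of Runx3 and Tlx3 span 0 throughout.

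The stretches before the transcription starts of Prdm12 and Nhlh2 are shown as those of 1 jugular and 1 nodose member whose 4 jugular and 6 nodose pools did not overlap. They were read from the RefSeq promoter table (GRCm38.p6), which matched 8 of the 9 members (not Tbx3), and were kept to bases outside annotated exons. The Prdm12 stretch is chr2:31639787-31640036 and the Nhlh2 stretch is chr3:102009895-102010075, both on the plus strand. Capitals mark matches, on either strand, to the E-box CANNTG of basic helix-loop-helix factors, the homeodomain core TAAT, the Runx core TGTGGT and the T-box core AGGTGT.
Prdm12: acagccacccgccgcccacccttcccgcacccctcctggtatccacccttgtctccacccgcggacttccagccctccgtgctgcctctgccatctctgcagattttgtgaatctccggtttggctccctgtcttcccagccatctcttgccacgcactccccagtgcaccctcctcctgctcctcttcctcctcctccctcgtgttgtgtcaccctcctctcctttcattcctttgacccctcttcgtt
Nhlh2: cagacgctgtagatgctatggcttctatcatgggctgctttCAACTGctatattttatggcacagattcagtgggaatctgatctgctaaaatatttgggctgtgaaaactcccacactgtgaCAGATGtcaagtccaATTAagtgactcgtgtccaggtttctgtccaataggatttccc
The Prdm12 stretch of 250 bases held none of the 4 letter runs. Of 32851 RefSeq promoters, 66.2% held an E-box in 250 bases and 54.9% held TAAT, against 14% for the Runx core and 11.8% for the T-box core. The Nhlh2 stretch of 181 bases held 2 E-boxes and 1 TAAT, which 55.7% and 47.8% of promoters held in windows of that length. These are matches of letters and not sites of binding.

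Isl1 (ENSMUSG00000042258.13, chromosome 13, 116298281 to 116309689, minus strand) was at 26.29 CPM or more in all 10 pools. It had 123.6 and 159.8 CPM in Trpv1-positive nodose pools, 97.75 and 99.52 CPM in Trpv1-negative nodose pools and 26.29 and 41.88 CPM in Trpv1-positive jugular pools. Capsaicin-responsive nodose pools had 154.3 and 428.5 CPM, and capsaicin-responsive jugular pools had 139.3 and 494.9 CPM. Within the Trpv1 selection the 3 groups did not overlap, with Trpv1-positive nodose highest, though on plain totals Trpv1-positive (155.4 and 212 CPM) and Trpv1-negative nodose pools (160 and 160.7 CPM) overlapped. The nodose and jugular pools of the capsaicin selection overlapped on both scales. The log2 fold change between ganglia was 2.05 in the Trpv1 selection (SE 0.61, adjusted p = 0.321) and -0.58 in the capsaicin selection (SE 0.90, adjusted p = 0.9999). The difference between these values, tested as an interaction in edgeR, was 2.69 (SE 1.18, unadjusted p = 0.0470, adjusted p = 0.478), the lowest p of the members in that test, and it did not pass. No gene was called for an interaction by edgeR, though 1233 of 11959 had an unadjusted p under 0.05 and DESeq2 called 1204. Isl1 was higher in Trpv1-negative nodose than in Trpv1-positive jugular pools by 1.51 on the log2 scale (SE 0.58, adjusted p = 0.361).

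Pou4f1 (ENSMUSG00000048349.9, chromosome 14, 104461676 to 104467999, minus strand) varied over the widest range of the homeodomain members. It had 1948 and 1560 CPM in capsaicin-responsive jugular pools and 97.25 and 651 CPM in capsaicin-responsive nodose pools. In the Trpv1 selection it had 30.41 and 74.89 CPM in jugular pools, 0.2419 and 30.31 CPM in Trpv1-positive nodose pools and 30.39 and 8.257 CPM in Trpv1-negative nodose pools. The jugular pools were higher than the nodose pools of the same selection, but Trpv1-positive jugular pool 1 and Trpv1-negative nodose pool 1 were nearly level, and on plain totals the second was higher (49.73 against 42.88 CPM). The 4 capsaicin pools were higher than all 6 of the Trpv1 selection, though on plain totals Trpv1-positive jugular pool 2 (110.5 CPM) lay above capsaicin-responsive nodose pool 1 (104.1 CPM). Between ganglia the log2 fold change was -2.70 in the capsaicin selection (SE 0.89, 95% interval -4.95 to -0.45, adjusted p = 0.352), -1.78 in the Trpv1 selection (SE 2.07, adjusted p = 0.900) and -2.19 over both (SE 1.02, adjusted p = 0.471). None passed. Of the Trpv1-positive nodose pools, pool 1 held 47 counts and pool 2 held 6180.

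The selections were compared over both ganglia after these levels had been seen, with the Trpv1-negative pools left out. Pou4f1 was lower in the Trpv1 selection, with a log2 fold change (Trpv1 minus capsaicin) of -4.25 (SE 1.11, adjusted p = 0.0657). It was the 1 member of 8 called, where 5.84% of genes were (486 higher and 212 lower in the Trpv1 selection, but 271 and 288 with DESeq2 size factors), and the call was lost without capsaicin-responsive nodose pool 2 (adjusted p = 0.1397) or capsaicin-responsive jugular pool 1 (0.1142). The median log2 fold change of all genes in this fit was 1.04 under TMM scaling and 0.51 under DESeq2 size factors, and Pou4f1 lay below it. Glial genes also moved with the selection, with Apoe at 2041 to 3079 CPM in the Trpv1-positive pools and 63.29 to 270.8 CPM in the capsaicin pools. The part of the glial genes in the Pou4f1 difference was not tested.

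Tlx3 (ENSMUSG00000040610.7, chromosome 11, 33200752 to 33203589, minus strand) ran the other way by selection. It had 6.177 and 44.37 CPM in Trpv1-positive nodose pools, 24.43 and 35.22 CPM in Trpv1-negative nodose pools and 23.06 and 41.61 CPM in Trpv1-positive jugular pools. Of the 4 capsaicin pools, 3 held no count and capsaicin-responsive jugular pool 2 held 15 counts (0.6254 CPM). The 3 groups of the Trpv1 selection overlapped, and all 6 of their pools lay above the 4 capsaicin pools. The ganglion difference in the Trpv1 selection was -0.36 on the log2 scale (SE 1.46, 95% interval -4.06 to 3.35, adjusted p = 0.985), and in the capsaicin selection Tlx3 was too low to be tested. The Trpv1 minus capsaicin log2 fold change was 9.47 (SE 3.06, adjusted p = 0.131), did not pass, and rests on those 15 counts in the lower group. Pou4f1 and Tlx3 were the 2 of 8 members whose 4 Trpv1-positive and 4 capsaicin pools did not overlap, where 18.3% of genes did not. On plain totals Pou4f1 overlapped, as given above.

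Runx1 (ENSMUSG00000022952.17, chromosome 16, 92601466 to 92826149, minus strand, overlapped by the antisense gene Gm26626) was detected in all 10 pools, at 5.046 CPM or more. It had 48.2 and 55.86 CPM in Trpv1-positive jugular pools, 20.6 and 10.44 CPM in Trpv1-positive nodose pools and 5.046 and 8.445 CPM in Trpv1-negative nodose pools. Capsaicin-responsive nodose pools, at 23.43 and 79.33 CPM, overlapped capsaicin-responsive jugular pools, at 124.2 and 34.23 CPM. In the Trpv1 selection jugular pools were highest and Trpv1-negative nodose pools lowest, with no overlap among the 3 groups. The log2 fold change between ganglia was -1.76 in the Trpv1 selection (SE 1.13, adjusted p = 0.725), -1.03 in the capsaicin selection (SE 1.48, adjusted p = 0.9999) and -1.34 over both (SE 1.05, 95% interval -3.66 to 0.98, adjusted p = 0.831). Against the Trpv1-negative nodose pools it was -2.98 (SE 1.05, adjusted p = 0.331). Between Trpv1-positive and Trpv1-negative nodose neurons it was 1.24 (SE 1.71, adjusted p = 0.933).

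Runx3 (ENSMUSG00000070691.10, chromosome 4, 135120652 to 135177990, plus strand, overlapped by the antisense gene Gm16224) reached 1 CPM in 1 pool. It had 0.6916 and 18.66 CPM (179 and 4473 counts) in the Trpv1-negative nodose pools. In the other 8 pools it had 0 to 27 counts. Trpv1-negative pool 2 thus stood alone, and pool 1 of the same group was also above the other 8 pools. The Trpv1-positive minus Trpv1-negative log2 fold change was -6.23 (SE 2.83, 95% interval -13.43 to 0.97, adjusted p = 0.535), and Runx3 did not reach 10 CPM in both pools of any group.

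Phox2a (ENSMUSG00000007946.11, chromosome 7, 101818313 to 101822726, plus strand) was high in 1 pool of each nodose group of the Trpv1 selection. It had 14.13 and 0.004904 CPM (2746 counts and 1 count) in Trpv1-positive nodose pools and 0.003864 and 11.97 CPM (1 count and 2870 counts) in Trpv1-negative nodose pools. It had 1 count in the Trpv1-positive jugular pools together and none in the 4 capsaicin pools. The replicates of a group thus differed more than the groups did, with a log2 fold change of 0.29 between Trpv1-positive and Trpv1-negative nodose neurons (SE 3.71, adjusted p = 0.997). Between ganglia Phox2a did not pass the filter on low counts in the comparisons above. Inppl1 overlaps Phox2a on the other strand, with 129 and 0 counts in the Trpv1-positive and 1127 and 0 counts in the Trpv1-negative nodose pools. Its counts thus ran with those of Phox2a in the first pair of pools and against them in the second.

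Such splits were common among genes of all kinds in these pools. Of the genes that reached 10 CPM in either Trpv1-positive nodose pool, 22.5% were under 1 CPM in the other pool of the group, Phox2a and Pou4f1 among them. The share was 14.6% in the Trpv1-negative nodose group, with Phox2a and Runx3 among them, 17.4% in the Trpv1-positive jugular, 44.3% in the capsaicin-responsive nodose and 27.3% in the capsaicin-responsive jugular group.

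Levels were also set per kilobase of annotated exon, which compares genes with each other only roughly. The length joined all annotated exons of a gene and need not be that of the transcript expressed. On this scale Prdm12 led the members in Trpv1-positive jugular neurons (mean 57.73 CPM per kb, n = 2), before Tlx3 (21.09), Pou4f1 (11.27) and Isl1 (8.609). In Trpv1-positive nodose neurons Isl1 led (35.79), before Tbx3 (22.7) and Tlx3 (16.49), and Prdm12 was at 0.04449 CPM per kb. Pou4f1 led in capsaicin-responsive jugular neurons (375.4 CPM per kb). In capsaicin-responsive nodose neurons Pou4f1 (80.08) and Isl1 (73.6) were close, and their order was not the same in both pools. In the Trpv1-negative nodose group the order began with Isl1 (24.91), Tlx3 (19.46) and Nhlh2 (4.655).

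Other factors of the placodal and visceral program were mostly low. Of 18 such genes, 9 reached 1 CPM in any pool and 6 had no count in any pool. Only 4 to 7 of them were tested in a comparison. None was called by edgeR, where 0% to 5.84% of all genes tested were. Eya1, a transcriptional coactivator of placode development, was at 0 to 0.02153 CPM in the 4 jugular pools and at 1.76 to 46.94 CPM in the 6 nodose pools. Its capsaicin log2 fold change of 12.53 (SE 3.99, adjusted p = 0.352) is set against jugular pools without a count and is no bound. Nr2f2 ranged from 0.1544 to 169.4 CPM, with nodose and jugular pools overlapping. Six4 was at 30.21 and 37.73 CPM in capsaicin-responsive jugular pools and had no count in capsaicin-responsive nodose pools, while in the Trpv1 selection it was at 4.834 and 14.15 CPM in Trpv1-negative nodose pools and at 0.008613 to 0.408 CPM in the 4 Trpv1-positive pools.

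Of 20 factors of the crest and somatic program, 10 reached 1 CPM in a pool. Etv1, an ETS factor known from proprioceptive neurons, was called, and it was higher in nodose pools. It had 189.3 and 142.7 CPM in Trpv1-positive nodose pools, 149.2 and 199.8 CPM in Trpv1-negative nodose pools and 0.08613 and 0.06868 CPM in Trpv1-positive jugular pools. Its log2 fold change was 11.05 (SE 0.89, adjusted p = 0.0362) in the Trpv1 selection. Etv1 in the capsaicin selection was at 740.4 and 399.2 CPM (nodose) and at 0.3531 and 100.6 CPM (jugular), and the difference of 3.14 (SE 2.14, adjusted p = 0.774) did not pass. Prrxl1 (Drgx), a homeodomain factor of nociceptors, had 6.861 and 15.19 CPM in Trpv1-positive jugular pools and 0.4316 and 18.97 CPM in capsaicin-responsive jugular pools, against at most 0.05851 CPM in nodose pools. Zfp521 (0 to 52.16 CPM), Maf (0 to 41.2 CPM) and Cux2 (0 to 33.49 CPM) differed widely between pools of a group.

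Among 24 relatives and partners of the members, 10 to 17 were tested in a comparison between ganglia or by Trpv1 status. None was called there by edgeR, where 0% to 0.577% of all genes tested were. Cbfb, the partner that Runx proteins need to bind DNA well, was at 78.26 CPM or more in all 10 pools. Klf7 ranged from 18.9 to 265.9 CPM and Ldb2, a cofactor of LIM homeodomain proteins, from 11.61 to 193.7 CPM. Tlx2, the paralog of Tlx3, followed it by selection, at 112.5 to 343.8 CPM in the 6 Trpv1 selection pools, while the capsaicin pools had 0 to 4.709 CPM. Tlx2 was called in the comparison of selections (log2 fold change 9.81, SE 2.36, adjusted p = 0.0452), as was Runx1t1, which was lower in the Trpv1 selection (-4.75, SE 1.28, adjusted p = 0.0726). Isl2, the paralog of Isl1, was at 26.17 CPM or more in the Trpv1 selection, while capsaicin pools had 0.05851 to 30.85 CPM.

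Of 19 genes known to depend on members, all reached 1 CPM in a pool. In the Trpv1 selection 3 of the 16 tested were called between ganglia, where 0.318% of all genes tested were. This list too was chosen with earlier results of these data known. Tac1, the precursor of substance P, was lower in nodose pools (log2 fold change -10.65, SE 0.95, adjusted p = 0.0453), as was Calca, the gene of CGRP (-3.32, SE 0.26, adjusted p = 0.0361). Chrna3, a nicotinic receptor subunit of visceral neurons, was higher in nodose pools (11.93, SE 0.89, adjusted p = 0.0312). In the capsaicin selection 0 of 15 were called by edgeR, as were 0 of all 8181 genes, with 1150 genes at an unadjusted p under 0.05 and 831 (10.2%) called by DESeq2.

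Over both selections Tac1 (-10.45, SE 0.81, adjusted p = 0.000262) and Mrgprd, a receptor of nonpeptidergic nociceptors (-10.98, SE 1.32, adjusted p = 0.00396), were called and were lower in nodose neurons. Mrgprd was at 58.11 to 548.1 CPM in the 4 jugular pools and at most 0.5266 CPM in the 6 nodose pools. Calca was the member-dependent gene called by Trpv1 status inside the nodose ganglion, with 231.8 and 364.8 CPM in Trpv1-positive and 0.6685 and 0.8678 CPM in Trpv1-negative pools (log2 fold change 8.64, SE 0.58, adjusted p = 0.04996). Calca, Mrgprd and Tac1 were also called between Trpv1-negative nodose and Trpv1-positive jugular neurons. Slc17a6, a vesicular glutamate transporter, was called between selections (-2.57, SE 0.54, adjusted p = 0.0228). Nefh, Scn10a, P2rx3 and Th, the most abundant of the uncalled genes of this list, were at 35.54 CPM or more in the 6 pools of the Trpv1 selection, and Th was at 667.4 and 686.2 CPM in capsaicin-responsive nodose pools against 0.3924 and 0.1668 CPM in capsaicin-responsive jugular pools.

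**Figure D3:**
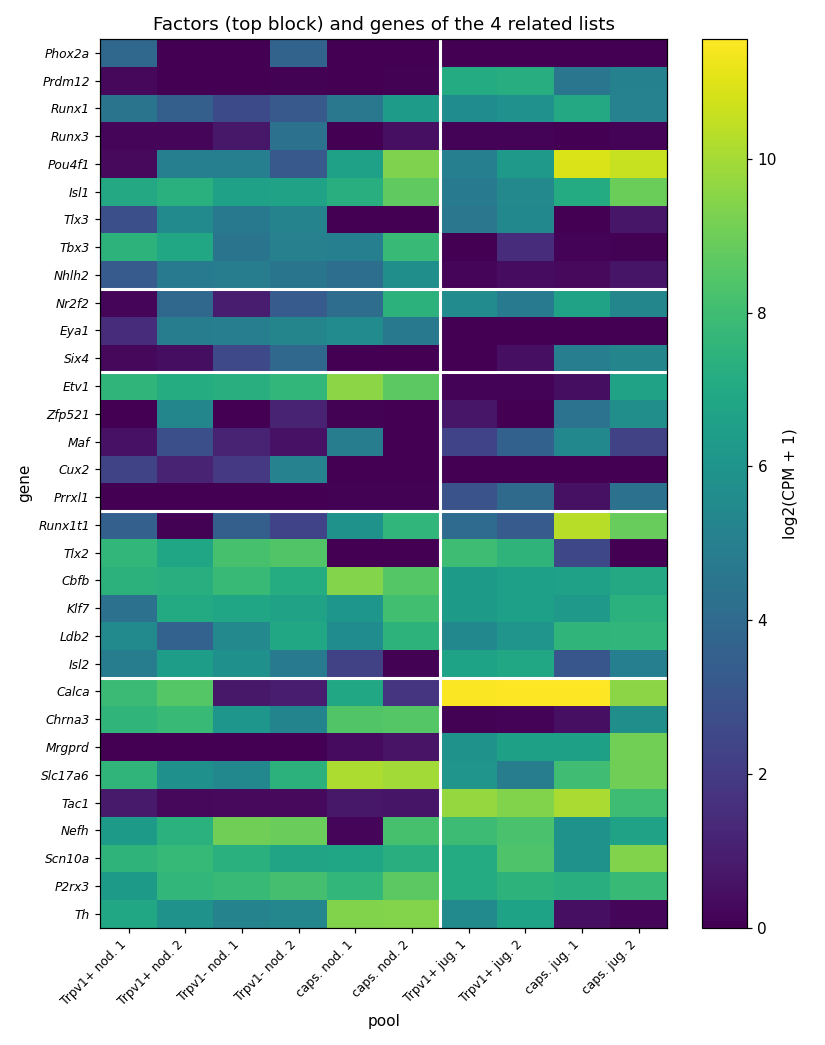
Level of the 9 factors (top block) and of genes from the lists of placodal factors, crest factors, relatives and partners, and dependent genes (lower blocks, in that order), as log2(CPM + 1) in 10 pools; white lines part the lists and the nodose (left) from the jugular pools (right). Mrgprd and Tac1 are bright in the jugular columns with Prdm12, Etv1 is bright in the nodose columns and in 1 jugular column, and Tlx2 is dark in the capsaicin columns with Tlx3.

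The genes whose levels followed each member most closely were taken from 7504 genes that reached 10 CPM in both pools of a group, by Pearson's r of log2(CPM + 1) over the 10 pools. These values describe pools that share groups, selections and depth. Prdm12 was followed most closely by Gm13157 (r = 0.9868), Nptx1 (0.9858) and Serpina11 (0.9839). Serpina11 had 28.24 and 36.56 CPM in Trpv1-positive jugular pools, 20.6 and 8.63 CPM in capsaicin-responsive jugular pools and at most 0.008345 CPM in nodose pools. Tbx3 was followed by Fam122b (0.9612), P2rx2 (0.9612) and Rgs9 (0.9522), and Nhlh2 by Rgs9 (0.9819) and Atp7a (0.9768), among others. Rgs9, a regulator of G protein signaling, had 29.6 to 134.3 CPM in the 6 nodose pools and at most 0.168 CPM in the jugular pools. Tlx3 was followed by Ino80b (0.9923), Cacna2d3 (0.9868) and Mgll (0.978), each with at most 0.03924 CPM in the capsaicin pools. Pou4f1 was followed by Pitpnc1 (0.9454), Golga7 (0.9427) and Ncstn (0.9354), Runx1 by Anxa5 (0.9357), Txnl4a (0.9332) and Txndc9 (0.9219), and Isl1 by Nup88 (0.9207), Camta1 (0.902) and Elovl5 (0.9014).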

How the data were processed

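For each pool the authors deposited unnormalized read counts, 1 row per gene symbol. Per the labels and the study's methods, cDNA was made with an oligo(dT)-primed SMARTer kit and amplified by PCR, paired-end reads were aligned to mm10 with TopHat2 2.0.9 and Bowtie2 2.1.0.0, and reads were counted with HTSeq. The gene annotation and strand setting used for counting were not given in the sources used here, and no molecular identifiers were counted. Pools were grouped by their labels, and replicate pools differed by more than sampling noise (chi-square per degree of freedom of 513 or more).

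The deposited counts were tested with edgeR 4.0.16 (quasi-likelihood F test, TMM, filterByExpr with a minimum count of 10) in R 4.3.3, with Benjamini-Hochberg adjustment over all genes tested. The 2 against 2 comparisons used their own pools, and the fits over both selections had selection as a term. DESeq2 1.42.0, other scalings, no filter, thinned counts, a replicate block and each pool left out were the alternatives. The fits were tested on simulated data. Rows that share a symbol (2 symbols) were kept apart, and 27 symbols turned into month-like words were not renamed. The members and lists were chosen with earlier results of these data known. The comparison between selections was added after the values had been seen. Named genes were the 9 members, genes of 4 lists that were called plus up to 4 others of each list with the highest mean CPM, and the 3 nearest genes by correlation for each member at 10 CPM in both pools of a group. 3 genes named by this rule are not reported here. Coordinates are from GENCODE vM21 (GRCm38, the mm10 assembly) and promoter sequences from RefSeq.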

Additional observations from a re-analysis of the deposited data

How the results depend on the processing

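DESeq2 called more members and genes than edgeR. It called 3 members in the Trpv1 selection (1031 genes in all), 3 in the capsaicin selection (831 genes), 1 by Trpv1 status (650 genes), 4 between Trpv1-negative nodose and Trpv1-positive jugular neurons (759 genes), 3 over both selections (1124 genes), 0 for the interaction (1204 genes) and 4 between selections (2269 genes, against 698 in edgeR). Without the filter on low counts, edgeR called 1 member in the Trpv1 selection (59 genes against 35), 1 in the capsaicin selection (122 against 0), 10 genes by Trpv1 status (6 with the filter), 47 genes between Trpv1-negative nodose and Trpv1-positive jugular neurons (26 with it), 222 over both selections (69 with it) and 95 for the interaction (0 with it). Thinned to the shallowest total, the Trpv1 selection had 1 member called. With all 10 pools in 1 fit, 0 members were called between Trpv1-negative nodose and Trpv1-positive jugular neurons (14 genes), and 110 genes were called in the capsaicin selection. The cause of these differences was not tested.

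Same-numbered pools did not deviate together (r of -0.0137 to 0.0177), so no pairing by replicate number was seen. Such values cannot show whether same-numbered pools came from the same mouse. With the replicate block the genes called were 13 in the Trpv1 selection, 20 in the capsaicin selection, 1 by Trpv1 status, 2 between Trpv1-negative nodose and Trpv1-positive jugular neurons (0 members), 41 over both selections (1 member, as Tbx3 had an adjusted p of 0.1355) and 176 between selections.

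Leaving out 1 pool at a time, with a lone pool assumed to vary like the other groups, gave 0 to 0 genes called in the Trpv1 selection and by Trpv1 status, 0 to 29 in the capsaicin selection, 1 to 2 between Trpv1-negative nodose and Trpv1-positive jugular neurons (0 to 0 members), 38 to 89 over both selections (1 to 2 members), 0 to 195 for the interaction and 0 to 1 members between selections. The log2 fold change of Tlx3 in the Trpv1 selection then ran from -2.41 to 0.46, of Isl1 in the capsaicin selection from -1.24 to 0.70, of Runx1 there from -1.91 to 0.12, of Nhlh2 by Trpv1 status from -1.44 to 0.12, of Phox2a by Trpv1 status from -10.01 to 10.60 and of Prdm12 in the interaction from -1.83 to 4.27. The last was also -0.25 with DESeq2, -0.37 with the size factors of DESeq2 in edgeR and -0.0787 with the replicate block. The other 28 log2 fold changes of members recomputed kept their direction under the alternatives run. Of the levels of a member in a group recomputed on plain totals, 32 moved by more than the standard deviation between the pools of the group and 58 did not. At the depth of the capsaicin selection, a member under about 0.176 CPM could not be told from 0.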

Other observations

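The genes of this paragraph were chosen after their values had been seen. Hmx1, a homeobox factor known from somatic sensory ganglia, had 2447 and 1799 counts in the Trpv1-positive jugular pools and 0 to 7 counts in the other 8 pools, the capsaicin-responsive jugular pools included. Gfra3, a subunit of the artemin receptor, had 7980 and 12227 counts in Trpv1-positive jugular pools and 5139 and 1211 counts in capsaicin-responsive jugular pools, against 0 to 209 counts in the nodose pools. Dbh makes noradrenaline and is known as a target of Phox2 factors. It had 4568 and 10462 counts in the Trpv1-negative nodose pools and 0 to 5 counts in the other 8 pools. Phox2a had 1 count and 2870 counts in those Trpv1-negative pools, and 2746 counts in Trpv1-positive nodose pool 1. A link between the levels of Dbh and Phox2a was not tested.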
